A study of Mus musculus with 9 samples.

Results

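The 39 Hox genes of the mouse were taken from the deposited expression table as the rows whose symbol is Hox, a cluster letter from a to d and a number. They made up 39 of the 25965 rows of the table, 11 in HoxA on chromosome 6, 10 in HoxB on chromosome 11, 9 in HoxC on chromosome 15 and 9 in HoxD on chromosome 2 (GRCm38). Dppa2 and Dppa4 are small nuclear proteins with a SAP domain that are made in pluripotent cells, and the study depleted each of them to ask which genes depend on them. E14 mouse embryonic stem cells of 129/Ola background, grown without feeders in serum and LIF, received control, Dppa2 or Dppa4 siRNA at the start and again at 48 h, and polyadenylated RNA was sequenced at 96 h (4 days). According to the paper, the siRNA knockdowns were made in cells that carry the fluorescent reporters MERVL::tdTomato and Zscan4c::eGFP. Each treatment has 3 libraries, lettered A, B and C. The labels give letters only, and the paper speaks of biological replicates without saying whether they were separate cultures. The p-values therefore measure only the spread between these libraries, which may in part be technical.

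Hox proteins are homeodomain transcription factors that give cells along the head to tail axis of the embryo their position. Within a cluster all genes are read in the same direction, and the order of the genes along the chromosome follows the order in which they are switched on and the part of the body in which they act, with paralog group 1 earliest and furthest forward and group 13 latest and furthest back. In embryonic stem cells the clusters are a textbook target of Polycomb repression, with most genes kept close to silent.

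The targeted genes were examined first. Dppa2 had log2 values of 7.26, 7.16 and 6.94 with control siRNA, 3.36, 3.86 and 3.68 with Dppa2 siRNA and 7.01, 7.17 and 7.03 with Dppa4 siRNA (replicates A, B and C). All 3 libraries labelled Dppa2 siRNA were thus far below the others, an 11.2-fold reduction (limma, adjusted p = 2.13e-05). Dppa4 was at 7.02, 7.11 and 7.06 in the controls, 7.11, 7.07 and 7.17 after Dppa2 siRNA and 6.16, 6.14 and 6.09 after Dppa4 siRNA. It was 1.91-fold lower with its own siRNA (limma, adjusted p = 0.000281), a smaller reduction of RNA in these libraries than that of Dppa2. The paper measured both proteins after siRNA treatment, but the data used here hold RNA only.

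The deposited values are log2 expression values whose distributions the authors had matched between libraries. Because matching keeps the order of the genes, the rank of the distinct values in a library was taken as the whole number of reads behind a low value, with the lowest value standing for 0 reads. These reads are inferred and were not checked against counts, and the library totals behind every scaled value are extrapolated from ranks 300 to 700. The totals came to 24.3, 39.7 and 21.0 M in control replicates A, B and C, 26.9, 19.9 and 16.8 M with Dppa2 siRNA and 29.3, 30.7 and 21.3 M with Dppa4 siRNA. Every Hox gene had at most 210 reads in any library, within the range taken as whole reads.

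Of the 39 Hox genes, 14 had a value above -2 in 3 or more of the 9 libraries, 35.9% against 56.2% of all rows (14601). HoxA and HoxB each had 5 such genes (Hoxa7 among those of HoxA, and Hoxb1, Hoxb4, Hoxb7, Hoxb9 and Hoxb13), HoxC had 2 (Hoxc4 and Hoxc13) and HoxD had 2 (Hoxd11 and Hoxd13). By position, detection was most frequent in paralog groups 13 (3 of 4 genes), 4 (3 of 4) and 7 (2 of 2). These lie both at the end of the clusters that is switched on last and within them. None of the genes of groups 2, 6, 8, 10 or 12 reached the threshold in 3 libraries. Of the 25 genes that fell short, 10 passed -2 in 1 or 2 libraries and 15 in none. Their reads over all 9 libraries together ranged from 0 to 58, with a median of 21. Hoxa6 and Hoxc5 had no read in any library, Hoxd12 had 1 and Hoxb3 had 2. The threshold itself cuts the list at an arbitrary depth. A threshold of -3 kept 26 genes, one of -1 kept 9, and 31 genes had at least 3 reads in at least 3 libraries.

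Some Hox genes share exon bases with another annotated gene on the same strand, so that a read can be counted for both. The shared part of the exons was largest for Hoxd3 (62.4%) and Hoxd4 (52.3%), 10.8% for Hoxd11, 8.0% for Hoxa3 and 0% for Hoxd13, Hoxb13 and Hoxc13. Counts of the paired Hoxd3 and Hoxd4 are therefore not separate measurements.

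Among the detected genes, levels were compared after subtracting the log2 of the exon length in kilobases. On this scale the control libraries averaged 0.49 ± 0.26 (SD, n = 3) for Hoxc13, a gene of hair and nail. Hoxb9 was at -0.62 ± 0.24, Hoxb13, a marker of prostate and tail bud, at -0.98 ± 0.33 and Hoxd13, a gene of digits and the genital tubercle, at -1.02 ± 0.22. Hoxa7 (-1.72 ± 0.25) and Hoxb7 (-2.14 ± 0.89) were lower. Libraries of Hoxb9, Hoxb13 and Hoxd13 overlapped, below those of Hoxc13 and above those of Hoxa7. The most abundant Hox RNA of HoxC and of HoxD was therefore that of paralog group 13. In HoxB it was Hoxb9 by the mean of the control libraries. Over all 9 libraries, which include the higher Hoxb13 values of the knockdowns, it was Hoxb13, followed by Hoxb9. Even Hoxc13, the highest, lay at the 59.7th percentile of all rows by its mean value, which is not corrected for length.

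At these levels the deposited scale and the read counts do not run in parallel. A value above -2 needed 0.382 to 0.428 RPM (reads scaled to 1 M reads on genes) in the control libraries (8 to 17 reads) and 0.251 to 0.298 RPM in the knockdown libraries (5 to 8 reads). Across the 2402 tested rows with a mean value below 0, the median change was 0.12 on the deposited scale and -0.31 in log2 RPM with Dppa2 siRNA, and 0.17 and -0.32 with Dppa4 siRNA. For the 10019 rows with a mean above 2 these medians were 0.01 and 0.01, and 0.02 and 0.02. Changes of weakly expressed Hox genes are therefore given on the deposited scale with reads beside them. A drop is understated and a rise overstated on the deposited scale relative to RPM, a comparison that was added after the data had been seen.

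**Figure D1:**
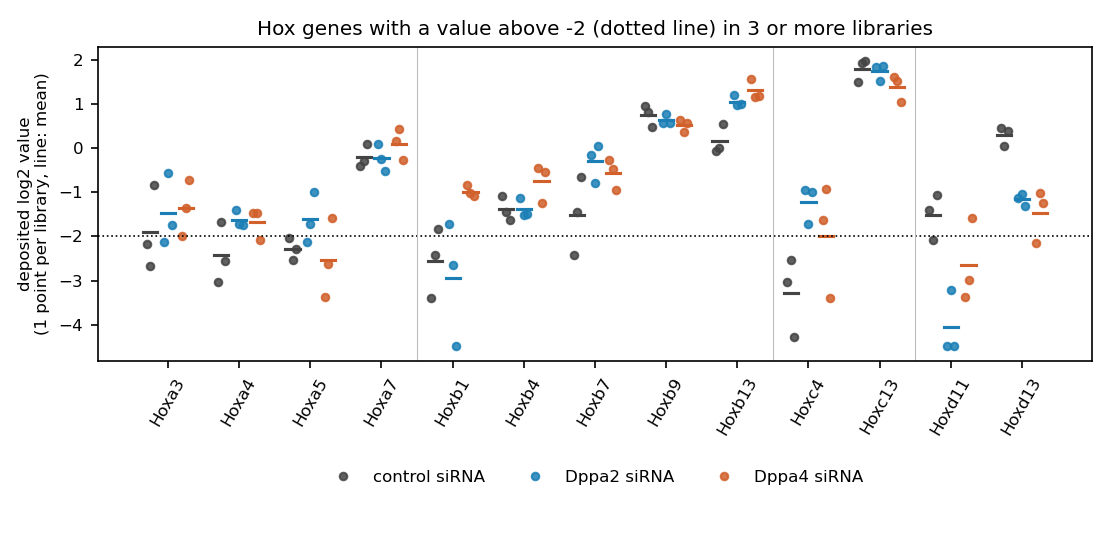
Deposited log2 values (vertical axis) of Hox genes with values above -2 in at least 3 libraries, 1 point per library and a line at the mean of the 3 libraries of a treatment. Hoxd13 lies at 0.04 to 0.45 in the control libraries and at -2.14 to -1.03 in the 6 knockdown libraries, while Hoxb13 lies higher in the knockdown libraries and Hoxc13 overlaps between all treatments.

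The HoxD cluster held the clearest difference between control and knockdown cells. Hoxd13 (chr2:74668310-74671599) had log2 values of 0.45, 0.04 and 0.39 with control siRNA, -1.12, -1.03 and -1.31 with Dppa2 siRNA and -2.14, -1.03 and -1.24 with Dppa4 siRNA. All 3 control libraries lay above all 6 knockdown libraries. These values stand for 45, 59 and 34 reads in the controls, 12, 10 and 7 with Dppa2 siRNA and 7, 15 and 9 with Dppa4 siRNA. Hoxd13 fell by 1.45 on the log2 scale (SE 0.32, 2.73-fold) with Dppa2 siRNA at an adjusted p of 0.0445 in limma. It fell by 1.76 (SE 0.32, 3.39-fold) with Dppa4 siRNA at an adjusted p of 0.0192. It was the only Hox gene called lower in either comparison, 1 of the 14 tested, where 2.27% of all 14601 tested rows were called lower with Dppa2 siRNA and 2.34% with Dppa4 siRNA. In bulk RNA fewer cells that express a gene and less RNA per cell cannot be told apart. The call with Dppa2 siRNA was lost without control replicate A, B or C (limma, adjusted p = 0.133, 0.0885 and 0.0819), Dppa2 siRNA replicate A, B or C (0.141, 0.0818 and 0.165) or Dppa4 siRNA replicate B or C (0.0594 and 0.0703), although the change stayed between -1.58 and -1.37. The call with Dppa4 siRNA was lost without control replicate A (limma, adjusted p = 0.0676) or when only the 2 groups were fitted (0.0606). Without a filter it was lost as well (limma, adjusted p = 0.0626). A block on the replicate letters ended both calls (limma, adjusted p = 0.133 with Dppa2 siRNA and 0.0749 with Dppa4 siRNA).

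The lower reads of HoxD were not limited to Hoxd13. Hoxd11 (chr2:74679392-74687741) had log2 values of -1.41, -2.08 and -1.06 in the controls, -4.49, -3.21 and -4.47 with Dppa2 siRNA and -3.38, -2.99 and -1.59 with Dppa4 siRNA. In reads these are 13, 16 and 13, then 0, 2 and 0, then 3, 4 and 7. The Dppa2 siRNA libraries lay below all controls, whereas 1 Dppa4 siRNA library overlapped them. The change was -2.54 with Dppa2 siRNA (SE 0.61, limma, adjusted p = 0.0627), just outside the threshold, and -1.14 with Dppa4 siRNA (SE 0.61, adjusted p = 0.382). Hoxd11 passed the filter with just 3 libraries, control replicates A and C and Dppa4 siRNA replicate C, and so was tested at the edge of detection. The size of the change with Dppa2 siRNA, which rests on 2 reads, depends on the scale. It was -3.69 on log2 RPM (limma, adjusted p = 0.0291), -1.21 with values raised to that of 3 reads (0.299) and -0.95 with a pseudocount (0.0831).

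Hoxd10, Hoxd9, Hoxd8 and Hoxd1 stayed below the filter and were not tested. Hoxd10 had 7, 8 and 7 reads in the controls, none in any Dppa2 siRNA library and 0, 2 and 0 with Dppa4 siRNA. Hoxd9 had 13, 20 and 4 control reads against 3, 1 and 0 and 3, 2 and 0. The neighbouring Hoxd8 had 6, 17 and 4 against 2, 0 and 2 and 1, 0 and 2. These 3 genes, which lie side by side in the middle of the cluster and act in limb and trunk, thus had fewer reads in each knockdown library than in the control library with the fewest. Hoxd1, at the opposite end of the cluster from Hoxd13, had 15, 22 and 4 reads in the controls, 4, 0 and 0 with Dppa2 siRNA and 3, 2 and 3 with Dppa4 siRNA. Its control library C was low, with as many reads as the first library of Dppa2 siRNA. The genes between them did not follow this pattern. Hoxd3 had 2, 3 and 2 control reads against 6, 4 and 0 and 3, 3 and 4, and Hoxd4 had 2, 2 and 1 against 4, 3 and 1 and 2, 1 and 3. These counts are too few to show a difference at this depth.

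Scaled to RPM over the 3 libraries of a treatment, Hoxd13 was at 28.1% of control with Dppa2 siRNA (exact 95% interval 18.1 to 42.1) and 23.5% with Dppa4 siRNA (15.4 to 34.9). Hoxd11 was at 34.8% (17.6 to 65.0) with Dppa4 siRNA, and with Dppa2 siRNA 2 reads over 3 libraries leave at most 24.4% by the upper end of the interval. For Hoxd10, the absence of reads with Dppa2 siRNA means at least 1.83-fold lower, with a floor of 3 reads per library, and 2 reads with Dppa4 siRNA leave at most 38.6% by the interval, which is another kind of bound, so the pair cannot be compared. The shares were 14.4% (3.74 to 40.2) and 14.1% (4.33 to 36.0) for Hoxd9, 19.8% (5.03 to 56.8) and 11.6% (2.25 to 37.7) for Hoxd8, and 13.0% (3.39 to 36.0) and 20.4% (8.25 to 44.0) for Hoxd1. These last shares rest on 3 to 8 reads over 3 libraries, below the same floor, so their point values are uncertain and only the upper ends of the intervals carry weight. None of these intervals reached 100%. They cover counting error only and not the spread between libraries, and several reads may stem from 1 molecule, as no molecular barcodes are described. Summed over its 9 genes, HoxD had 104, 147 and 69 reads in the controls, 31, 20 and 10 with Dppa2 siRNA and 22, 29 and 28 with Dppa4 siRNA. In RPM this is 25.4% (19.0 to 33.6) and 25.8% (19.9 to 33.1) of control. HoxA was at 87.5% (76.3 to 100) and 85.5% (75.2 to 97.1) of control. HoxB was at 102% (89.2 to 117) and 114% (101 to 130), and HoxC at 90.7% (78.2 to 105) and 73.7% (63.7 to 85.2). No test was made between the clusters. These shares, and those of single genes, are set against 100%. Tested rows with a mean value below 0 had themselves a median change of -0.31 and -0.32 in log2 RPM with Dppa2 and Dppa4 siRNA.

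**Figure D2:**
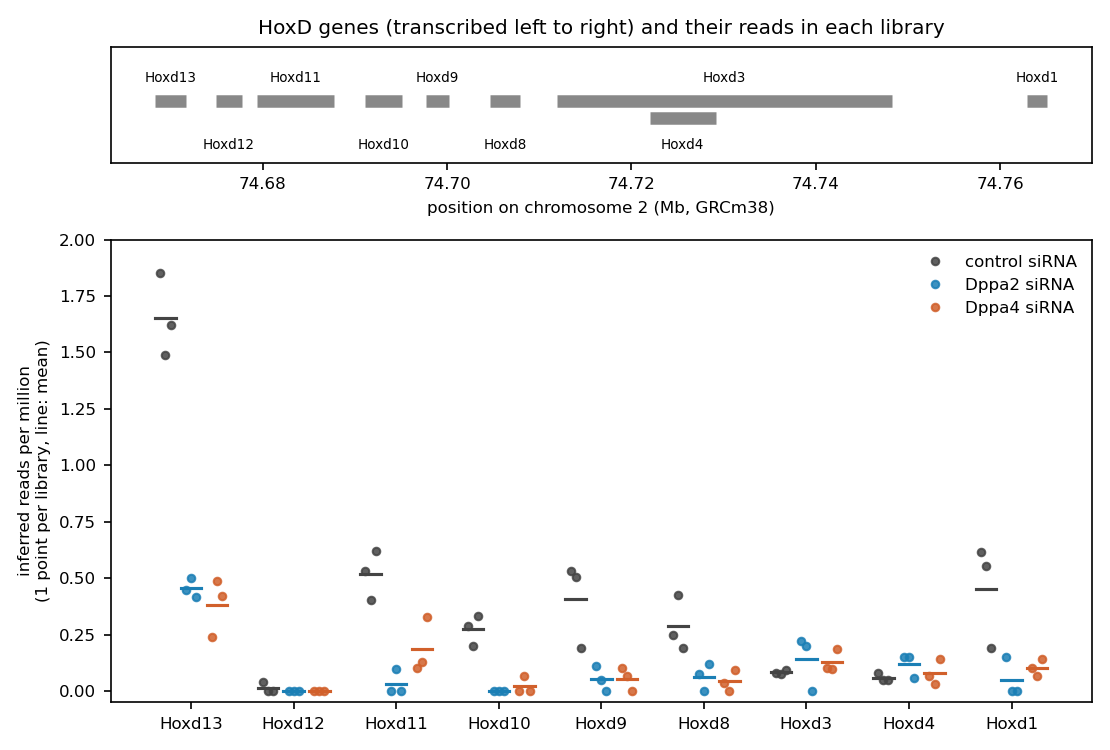
Map of the HoxD genes on chromosome 2 (horizontal axis in Mb) above the inferred RPM (vertical axis) of each gene, 1 point per library and a line at the mean of the 3 libraries of a treatment. Hoxd13 falls from 1.49 to 1.85 in the control libraries to 0.239 to 0.502 in the knockdown libraries, Hoxd11, Hoxd10, Hoxd9, Hoxd8 and Hoxd1 show lower points in the knockdowns, and Hoxd3 and Hoxd4 stay at or below 0.223 in every library.

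In HoxB the gene that differed was the most posterior one. Hoxb13 (chr11:96194316-96197447), which lies apart from the rest of the cluster, had log2 values of -0.06, 0.01 and 0.55 with control siRNA, 1.19, 0.96 and 0.99 with Dppa2 siRNA and 1.57, 1.15 and 1.19 with Dppa4 siRNA. Every knockdown library was above every control library. In reads these were 31, 58 and 38, then 69, 45 and 39, then 100, 75 and 55. Hoxb13 rose by 1.14 (SE 0.21, 2.20-fold) with Dppa4 siRNA at an adjusted p of 0.0216 in limma, the only Hox gene of 14 called higher, where 1.1% of tested rows were. With Dppa2 siRNA the change was 0.89 (SE 0.21, 1.85-fold), with an adjusted p of 0.0619 in limma, and no Hox gene was called higher, against 1.16% of tested rows. At an unadjusted p below 0.05 there were 3 Hox genes higher with Dppa2 siRNA (Hoxb13, Hoxb7 and Hoxc4), beside 1257 of the 14601 tested rows, and Hoxc4 passed the filter only through knockdown libraries. In RPM Hoxb13 stood at 161% of control with Dppa2 siRNA (126 to 205) and 189% with Dppa4 siRNA (152 to 237). Its call with Dppa4 siRNA was lost without control replicate A or B (limma, adjusted p = 0.0676 and 0.0741). Leaving out Dppa4 siRNA replicate A, B or C ended it too (limma, adjusted p = 0.107, 0.0762 and 0.0610). Fitting only the 2 groups did the same (limma, adjusted p = 0.0712). Hoxb13 also lost this call without a filter (limma, adjusted p = 0.0621) and with a block on the replicate letters (0.0773). Without control replicate C it was also called with Dppa2 siRNA (limma, adjusted p = 0.0225).

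The other HoxB genes showed no call. Hoxb9, next to Hoxb13 in group order, had mean log2 values of 0.74 ± 0.24 in the controls, 0.64 ± 0.13 with Dppa2 siRNA and 0.52 ± 0.15 with Dppa4 siRNA (SD, n = 3). In RPM Hoxb9 stood at 73.9% (57.9 to 93.8) and 66.3% (52.5 to 83.4) of control, the opposite direction from Hoxb13. Hoxb7 averaged -1.51, -0.30 and -0.57 and Hoxb4 -1.39, -1.38 and -0.74. Hoxb1, a gene of the hindbrain that retinoic acid switches on early, differed most between the knockdowns. Its log2 values were -3.39, -2.42 and -1.83 in the controls, -1.72, -2.65 and -4.47 with Dppa2 siRNA and -0.85, -1.03 and -1.08 with Dppa4 siRNA. The Dppa4 siRNA libraries were above all others, at 17, 15 and 10 reads, while the Dppa2 siRNA libraries spread across the controls. The change with Dppa4 siRNA was 1.56 (SE 0.69, limma, adjusted p = 0.273). Hoxb2, Hoxb3, Hoxb5, Hoxb6 and Hoxb8 did not pass the filter and had 40, 2, 22, 10 and 31 reads in all.

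The most abundant gene of HoxC was not called. Hoxc13 (chr15:102921103-102928814) was at 1.49, 1.92 and 1.96 in the controls, 1.83, 1.52 and 1.87 with Dppa2 siRNA and 1.61, 1.51 and 1.03 with Dppa4 siRNA, and all 3 treatments overlapped on this scale. Its change was -0.05 (SE 0.21, 95% interval -0.52 to 0.41, limma, adjusted p = 0.975) and -0.41 (SE 0.21, -0.88 to 0.06, adjusted p = 0.346). In RPM Hoxc13 stood at 65.5% of control (55.7 to 77.0) with Dppa4 siRNA, all 3 of these libraries lying below all controls. A fall as large as that of Hoxd13 lay outside these intervals.

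In HoxA the averages with control, Dppa2 and Dppa4 siRNA were -1.89, -1.48 and -1.36 for Hoxa3, -2.43, -1.62 and -1.67 for Hoxa4, -2.29, -1.62 and -2.53 for Hoxa5 and -0.20, -0.23 and 0.10 for Hoxa7. No gene of HoxA was called. Hoxa5 passed the filter with just 3 values above -2, Dppa2 siRNA replicates B and C and Dppa4 siRNA replicate C. All were knockdown libraries, so its entry into the test rested on these groups alone. In RPM, Dppa2 siRNA left Hoxa5 at 104% of control (55.8 to 191) and Dppa4 siRNA left it at 58% (28.7 to 113). The sign of the change turned between the deposited scale and RPM for Hoxa3 in both knockdowns, for Hoxb4 with Dppa2 siRNA, and for Hoxa7 with Dppa4 siRNA. Hoxc4 averaged -3.28 in the controls, -1.22 with Dppa2 siRNA and -1.98 with Dppa4 siRNA, from 5, 12 and 1 reads, 14, 6 and 9 reads and 10, 16 and 2 reads. All 5 of its values above -2 came from knockdown libraries, so it entered the test through the groups where it was high. Among genes below the filter, Hoxa11 had 0, 3 and 1 reads in the controls, 1, 1 and 1 with Dppa2 siRNA and 7, 8 and 3 with Dppa4 siRNA. Its 4 control reads are too few for a share. Hoxa10, next to it in the cluster, had 16, 14 and 4 control reads against 3, 2 and 2 and 1, 11 and 5, that is 27.5% of control by RPM (10.3 to 63.0) and 52.2% (27.4 to 96.1), the former on 7 reads, below a floor of 3 per library.

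**Figure D3:**
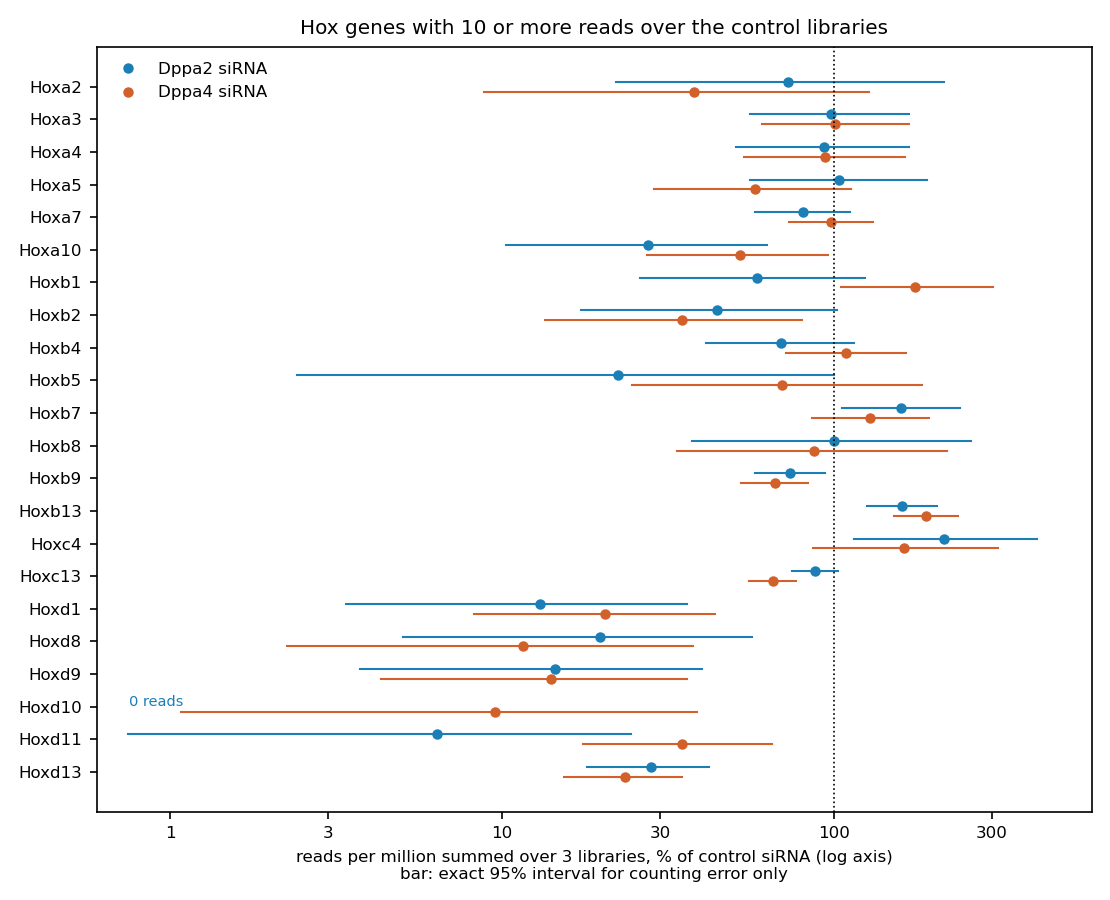
RPM summed over the 3 libraries of a knockdown as a percentage of control (horizontal log axis) for Hox genes with at least 10 reads over the control libraries, with exact 95% intervals for counting error only. The HoxD genes drawn lie at or below 34.8%, those other than Hoxd13 on 8 reads or fewer per knockdown except Hoxd11 with Dppa4 siRNA (14 reads), and Hoxb13 lies at 161% and 189%.

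The high-confidence genes of the study also had to pass an intensity difference filter, which compares the change of a gene with that of genes of similar level. No Hox gene passed limma and this filter together in either knockdown. The shares of all tested rows were 1.53% lower and 0.377% higher with Dppa2 siRNA, and 1.58% lower and 0.37% higher with Dppa4 siRNA. The filter alone, at an unadjusted p below 0.05, kept 0 of the 14 Hox genes in both comparisons, where it kept 691 and 679 of the 14601 tested rows. At an unadjusted p below 0.05 limma kept 5 Hox genes with Dppa2 siRNA, beside 2292 of all tested rows, and 3 with Dppa4 siRNA, beside 2634. For Hoxd13 the filter p was 0.255 (Dppa2 siRNA) and 0.0825 (Dppa4 siRNA).

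The knockdowns share their control libraries, so each was also read without a test as to whether its 3 libraries lay outside the 3 controls, over all 39 genes. Values that stand for 0 reads were taken as equal here, because the lowest value differs between libraries. Otherwise Hoxa6, Hoxb3, Hoxb6 and Hoxc5 would also lie above all controls in both knockdowns. On deposited values 4 Hox genes were below all controls with Dppa2 siRNA (Hoxd9, Hoxd10, Hoxd11 and Hoxd13), where 5.98% of all rows were, and 4 with Dppa4 siRNA (Hoxd8, Hoxd9, Hoxd10 and Hoxd13), where 7.08% were. All were HoxD genes. Above all controls were 4 with Dppa2 siRNA (Hoxa11, Hoxb13, Hoxc4 and Hoxd4), against 6.06% of rows, and 5 with Dppa4 siRNA (Hoxa11, Hoxb1, Hoxb13, Hoxc6 and Hoxd3), against 8.53%. In RPM 8 were below with Dppa2 siRNA (8.21% of all rows), with Hoxd1, Hoxd8, Hoxa10 and Hoxb5 joining, and 1 was above, Hoxb13 (3.79%). With Dppa4 siRNA 9 were below (10.1%), Hoxd1, Hoxd8, Hoxd9, Hoxd10, Hoxd11, Hoxd13, Hoxb2, Hoxb9 and Hoxc13, and 4 were above (5.44%), Hoxa11, Hoxb1, Hoxb13 and Hoxd3.

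The knockdowns were also compared with each other. The difference itself uses no control library, but its SE and p-value come from the fit on all 9 libraries. No Hox gene differed (limma, 14 tested), where 0.0205% of all tested rows did, 3 rows that included Dppa2 and Dppa4 themselves. At an unadjusted p below 0.05 there were 2, beside 987 of all 14601 tested rows, Hoxb1 (1.96 higher with Dppa4 siRNA, SE 0.69, limma, adjusted p = 0.678) and Hoxd11 (1.40 higher, SE 0.61, adjusted p = 0.73). For Hoxd13 the difference was -0.31 (95% interval -1.04 to 0.41) and for Hoxb13 0.25 (-0.23 to 0.73).

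Other rows within the clusters were noncoding or antisense, 25 in all, of which 5 were tested and none was called. In HoxD the same-strand Gm20440, which spans from Hoxd11 to Hoxd10, had 5, 10 and 5 reads in the controls, 0, 2 and 0 with Dppa2 siRNA and 1, 0 and 3 with Dppa4 siRNA. The antisense 6720416L17Rik, between Hoxd3 and Hoxd1, varied from 1 to 19 reads among the controls alone. In HoxB, Gm11538, the nearest row to Hoxb13, averaged -3.33 in the controls, -1.42 with Dppa2 siRNA and -2.24 with Dppa4 siRNA. The row of Mir196a-1 averaged -3.05, -1.63 and -1.28. Every value of these rows above -2 came from a knockdown library, so they entered the test through the groups where they were high. Gm53 between them stayed at 2.16, 2.07 and 2.22. Hotair in HoxC had no read in any library.

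The 5 nearest rows on each side of every cluster gave 40 flanking rows, of which 27 were tested and none was called with either siRNA. Dppa2 siRNA left their median change at -0.01 and Dppa4 siRNA at -0.06, beside 0.02 and 0.03 for all tested rows. Next to HoxD, Evx2, which lies beyond Hoxd13, had no reads in any library. Lnp, further out on that side, changed by -0.12 and -0.46, and Mtx2, beyond Hoxd1, averaged 5.37, 5.36 and 5.24. Beside HoxA, Gm15055 changed by -0.02 and -0.10 and Evx1 averaged -0.70, -1.16 and -0.56.

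Partners and regulators of Hox genes were followed as lists. All 9 TALE homeodomain cofactors, the Pbx, Meis and Pknox genes that bind DNA with Hox proteins, were tested and none was called. For Dppa2 siRNA their median change was 0.20, and for Dppa4 siRNA 0.22. Pbx2, the most abundant per length, averaged 5.63, 5.88 and 5.82, and Pbx3 averaged 2.79, 2.53 and 2.27 (limma, adjusted p = 0.338 and 0.0524). Of the 8 Cdx, Evx and ParaHox genes, relatives of Hox genes of which the Cdx factors activate posterior Hox genes, 6 were tested and none was called. Cdx1 averaged 0.36, 1.18 and 1.52 and its change with Dppa4 siRNA was 1.16 (limma, adjusted p = 0.0921). Gsx2 averaged -1.83, -1.71 and -3.38, a change of -1.56 with Dppa4 siRNA (limma, adjusted p = 0.0924), where it had 3, 3 and 2 reads. All of its values above -2 came from control and Dppa2 siRNA libraries, so it entered the test through the groups where it was high. Cdx2 averaged 0.06, 0.01 and 0.20.

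Of 11 genes of Polycomb repressive complex 2, which methylates lysine 27 of histone H3, 1 was called with Dppa2 siRNA. This was Phf19, an accessory subunit, at 3.34, 3.26 and 3.31 in the controls and 3.87, 3.71 and 3.77 with Dppa2 siRNA, with no overlap. It rose by 0.48 (SE 0.10, limma, adjusted p = 0.0305), and its change with Dppa4 siRNA was 0.24 (adjusted p = 0.24). The catalytic subunit Ezh2 changed by -0.15 and -0.21 and was not called. Of 19 genes of Polycomb repressive complex 1, 1 was called, Pcgf5 with Dppa4 siRNA. It was at 2.87, 2.87 and 3.19 in the controls and 2.24, 2.17 and 2.23 with Dppa4 siRNA, fell by 0.76 (SE 0.13, limma, adjusted p = 0.0132), and its change with Dppa2 siRNA was -0.38 (adjusted p = 0.177). Over all tested rows 2.27% were lower and 1.16% higher with Dppa2 siRNA and 2.34% and 1.10% with Dppa4 siRNA, and neither these lists nor that of retinoic acid genes was tested against these shares. The median changes were 0.10 and -0.02 for complex 2 and -0.06 and -0.07 for complex 1. None of the 10 Trithorax and H3K27 demethylase genes was called in either knockdown. Kmt2a and Kmt2b, which stand in the table under the older symbols Mll1 and Wbp7, changed by -0.18 and -0.18 with Dppa2 siRNA and by -0.22 and -0.04 with Dppa4 siRNA.

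Retinoic acid is the classical inducer of the early Hox genes. Of the 19 genes listed for its synthesis, binding and reception, 16 were tested. Only Rxra, which encodes the common partner of the retinoic acid receptors, was called. It was at 4.28, 4.29 and 4.34 with control siRNA, 3.71, 3.63 and 3.80 with Dppa2 siRNA and 3.87, 3.85 and 3.81 with Dppa4 siRNA, every knockdown library lying below every control. Rxra fell by 0.59 (SE 0.09, limma, adjusted p = 0.00915) and by 0.46 (SE 0.09, adjusted p = 0.0301). The median change of the list was -0.14 and -0.11. Crabp1, which binds retinoic acid in the cytoplasm, averaged 3.85, 2.65 and 2.33 (limma, adjusted p = 0.129 and 0.059), and the degrading enzyme Cyp26a1 averaged -0.74, -0.87 and -0.85.

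Markers of the cells that could be present were checked beside these results. The 8 stem cell markers were all detected and none was called. Pou5f1 averaged 10.19, 10.29 and 10.33. Of 10 fibroblast markers, 6 were below the filter, Lum had no read in any library, and Pdgfrb rose in both knockdowns by 1.08 and 0.90 (limma, adjusted p = 0.00718 and 0.0173). Twist1 went the other way without a call (-0.41 and -0.38, adjusted p = 0.241 and 0.238), every knockdown library lying below every control, and Col1a2 had 15, 13 and 4 reads in the controls, 2, 6 and 0 after Dppa2 siRNA and 1, 6 and 1 after Dppa4 siRNA. Thy1, the most abundant of them per length, averaged 2.42, 2.19 and 2.54, and their summed level was 14.2 to 18.4 RPM in the controls, 15.2 to 17.4 after Dppa2 siRNA and 14.4 to 17.8 after Dppa4 siRNA. The 8 primitive streak and mesoderm markers had no call and moved both ways. Changes ran from -0.69 (T) to 1.51 (Mesp1) with Dppa2 siRNA and from -1.04 (Gsc) to 1.22 (Cdx4) with Dppa4 siRNA. Mesp1 passed the filter only through its Dppa2 siRNA libraries, at 7, 5 and 6 reads against 2, 10 and 4 in the controls. Gsc passed it only through control and Dppa2 siRNA libraries. Both thus entered the test through the groups where they were high.

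The 7 neural markers summed to 157, 163 and 155 RPM in the controls, 112, 111 and 115 with Dppa2 siRNA and 126, 122 and 115 with Dppa4 siRNA, lower in all 6 knockdown libraries. Most of these reads are of Tubb3 and Nes. Tubb3, their most abundant gene, fell by 0.54 with Dppa2 siRNA (SE 0.11, limma, adjusted p = 0.0369), and its change with Dppa4 siRNA was -0.30 (adjusted p = 0.193). Without a call, the changes were -0.33 and -0.69 for Nes, -0.57 and -0.53 for Pax6 and -0.23 and 0.03 for Sox1. Neurog2 and Pax3 never passed -2. The 6 endoderm markers summed to 6.37, 7.81 and 4.34 in the controls, 5.65, 8.58 and 7.03 after Dppa2 siRNA and 9.20 to 10.7 after Dppa4 siRNA. Gata6 rose by 1.44 and Sox17 by 1.20 with Dppa4 siRNA (limma, adjusted p = 0.0132 and 0.0348), while Afp had no read in any library and Gata4, the most abundant per length, averaged 0.37, 0.94 and 1.58. Cxcr4 went the other way, at -0.35, -0.11 and -0.15 in the controls and -1.04, -0.92 and -1.59 with Dppa4 siRNA (change -0.98, limma, adjusted p = 0.0806), and Foxa2 was not called. These markers are given beside Hoxd13 and Hoxb13, and their part in the result was not tested.

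Promoter sequences were available from RefSeq (GRCm38.p6) for 22 of the 39 Hox genes, and the 250 bases before the start site nearest to that of the deposited gene were searched. They held a median of 12 CG dinucleotides, against 6 (quartiles 2 and 16) over 32841 promoters of all genes. The range was wide, from 2 in Hoxd11 to 35 in Hoxa13, and the medians were 13, 12 and 12 in HoxA, HoxB and HoxD. TATAAA on either strand occurred in 3 of the 22 and in 12.4% of all promoters, CCAAT on either strand in 13 and in 33.9%, and CACGTG, which reads the same on both strands, in 3 and in 6.02%. Hoxd13 held all 3 of these motifs. The promoters of HoxD genes are printed for the 3 genes with fewer reads in the knockdowns whose window touches no annotated exon, Hoxd13, Hoxd10 and Hoxd8, and for Hoxd4, whose reads were not fewer. All are on the plus strand, with the CG dinucleotides in capitals.
Hoxd13: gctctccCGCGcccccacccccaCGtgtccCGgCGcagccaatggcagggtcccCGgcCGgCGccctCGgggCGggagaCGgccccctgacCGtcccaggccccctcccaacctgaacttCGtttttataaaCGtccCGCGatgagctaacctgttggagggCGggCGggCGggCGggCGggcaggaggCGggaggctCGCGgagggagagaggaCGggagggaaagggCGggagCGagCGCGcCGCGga
Hoxd10: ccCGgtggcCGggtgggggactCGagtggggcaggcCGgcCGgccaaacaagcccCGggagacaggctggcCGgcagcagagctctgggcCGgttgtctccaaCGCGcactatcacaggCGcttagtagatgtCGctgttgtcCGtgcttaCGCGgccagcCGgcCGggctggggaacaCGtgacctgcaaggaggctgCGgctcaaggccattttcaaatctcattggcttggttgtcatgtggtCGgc
Hoxd8: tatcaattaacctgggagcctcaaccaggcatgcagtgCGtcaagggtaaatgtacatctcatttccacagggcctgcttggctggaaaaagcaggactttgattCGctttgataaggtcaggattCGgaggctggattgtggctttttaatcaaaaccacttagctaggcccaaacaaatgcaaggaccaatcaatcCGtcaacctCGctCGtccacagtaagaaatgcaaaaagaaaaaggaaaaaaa
Hoxd4: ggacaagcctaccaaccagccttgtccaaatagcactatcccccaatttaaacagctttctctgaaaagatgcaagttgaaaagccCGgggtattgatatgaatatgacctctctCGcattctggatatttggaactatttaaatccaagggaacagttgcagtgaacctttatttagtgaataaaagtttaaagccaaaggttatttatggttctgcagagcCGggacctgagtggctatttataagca
The first lies at chr2:74667975-74668224 with 31 CG dinucleotides, the second at chr2:74691641-74691890 with 20, the third at chr2:74704365-74704614 with 6 and the last at chr2:74721728-74721977 with 3. The window of Hoxd10 lies inside the deposited gene, which starts at 74691090. CG dinucleotides were thus dense in the promoter of Hoxd13 and at the median of all promoters in that of Hoxd8, which also had fewer reads in both knockdowns. How their density relates to the change in reads was not tested.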

How the data were processed

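RNA was quantified from strand-specific libraries of 9 samples, which the authors trimmed with Trim Galore 0.4.5 and mapped to GRCm38 with HISAT2 2.0.5 according to the submitters' processing notes. The deposited log2 values had been counted over transcripts in SeqMonk, with distributions matched across samples. Reads per library were inferred here from the rank of the distinct values, taken as whole reads up to 300, and library totals were extrapolated from ranks 300 to 700. Rows above -2 in at least 3 libraries (14601 of 25965) were tested with limma 3.58.1 in R 4.3.3 on all 9 libraries, with a trend of variance on level and p-values adjusted by Benjamini-Hochberg, called below 0.05. The normalized log2 values do not suit the count model of the study, so limma took its place. The intensity difference filter of the study was rebuilt on the 1% of rows nearest in mean. The limma step was tested on simulated data. Exon lengths and overlaps come from GENCODE vM21. Full statistics are given for called Hox genes and for the gene highest per length in each cluster, 1 of which is not reported here. Hoxd11, Hoxb1, the HoxD genes below the filter and the rows beside Hoxb13 were singled out after their values were seen, as were the alternatives on RPM and on length and GC content. The members and lists were chosen with earlier results of these data known.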

Additional observations from a re-analysis of the deposited data

How the results depend on the processing

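Hoxd13 was lower and Hoxb13 higher under every alternative, from -1.80 to -1.08 and from -2.11 to -1.25 for Hoxd13 with Dppa2 and Dppa4 siRNA and from 0.66 to 1.08 and from 0.88 to 1.33 for Hoxb13, but the calls often did not hold. Of 21 alternatives, Hoxd13 kept its call in 11 with Dppa2 siRNA and 16 with Dppa4 siRNA, and Hoxb13 kept its call with Dppa4 siRNA in 12 and gained one with Dppa2 siRNA in 4. Without a filter, 4 Hox genes were lower and 4 higher with Dppa2 siRNA, 1 of them lower at high confidence, and 0 were lower with Dppa4 siRNA, where Hoxb13 lost its call (limma, adjusted p = 0.0621) and Hoxa11 gained one (2.07, adjusted p = 0.00645). That fit calls genes with no reads, because the lowest value differs between libraries. Without the intensity trend, 2 were lower and 1 higher with Dppa2 siRNA. With only the 2 groups fitted, 0 were lower and 0 higher with Dppa4 siRNA. At an adjusted p of 0.01 (limma), 0 were lower in either knockdown and 0 higher with Dppa4 siRNA. Of the alternatives chosen after seeing the data, RPM gave 2 lower with Dppa2 siRNA, and correction for length and GC content gave 2 lower and 1 higher with Dppa2 siRNA and 1 lower at high confidence with Dppa4 siRNA. Leave-one-out counts ranged from 0 to 1 lower and 0 to 1 higher with Dppa2 siRNA, 0 to 1 lower, 0 to 1 higher and 0 to 1 lower at high confidence with Dppa4 siRNA. They were 0 to 0 for high confidence with Dppa2 siRNA and 0 to 0 between the knockdowns. With a replicate block the counts were 0 lower with Dppa2 siRNA, 0 lower with Dppa4 siRNA and 0 higher with Dppa4 siRNA. Whether the letters pair libraries across treatments is not known. Deviations from the group means correlated from -0.585 to 0.367 in 9 same-letter pairs and from -0.658 to 0.692 in 18 other-letter pairs. With 3 libraries in each group these values cannot settle whether a pairing exists. Detected genes numbered 26, 9 and 31 under a threshold of -3, of -1 and of 3 reads in 3 libraries. The cause of these moves was not tested. Low read counts limit what can be told of most Hox genes, with at most 22 reads in a library for the 25 untested ones.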
